A study of Mus musculus with 12 samples.

Results

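The 7 genes described here are Aldoa and Aldoc, which encode aldolases, and Khk, Tkfc, Sord, Akr1b3 and Slc2a5, which carry fructose into the cell, make it from glucose or break it down. They were chosen by symbol, with earlier results of these data known, from the 26921 genes in a table of RNA-seq counts from the mouse left ventricle. All 7 were found in that table, and 5 of them passed the expression minimum described below. The study compared 6 WT mice, which carried the floxed Gch1 alleles (Gch1 flox/flox) without Cre, with 6 cmGch1 KO mice, which carried the same floxed alleles and 1 α-MHC-Cre allele, a Cre that is active in cardiomyocytes. All mice were 16 weeks old, and each library came from 1 animal. Gch1 encodes GTP cyclohydrolase 1, the first enzyme of tetrahydrobiopterin synthesis. Other cell types of the ventricle keep the gene, and the animals of both genotypes shared the floxed alleles. Since the tissue was taken whole, fewer cells of a type and less RNA per cell cannot be told apart.

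Fructose enters cells through the transporter Slc2a5 (GLUT5), or is made from glucose in the polyol pathway, in which aldose reductase (Akr1b3) forms sorbitol and sorbitol dehydrogenase (Sord) oxidises it to fructose. Ketohexokinase (Khk) phosphorylates fructose to fructose 1-phosphate, an aldolase splits that into trioses, and triokinase (Tkfc) phosphorylates glyceraldehyde so that it can join glycolysis. The same aldolase fold serves glycolysis, with aldolase A the main isoform of muscle and aldolase C that of brain.

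Library totals lay between 19921398 and 37917806 counts. Levels are given in cpm, the counts of a gene for each 1000000 counts of its library, scaled by TMM factors. A count of 0 allows up to 3 counts, which is 0.0827 to 0.139 cpm over the 12 libraries and covers counting error only. Gch1 checked the labels: it lay between 9.27 and 12.1 cpm in WT and between 3.92 and 6.32 cpm in cmGch1 KO, with a log2 fold change of -0.96 (SE 0.11, adjusted p = 6.88e-04, edgeR with Benjamini-Hochberg adjustment). The summed level of 7 cardiomyocyte markers was 48140 to 53171 cpm in WT and 42573 to 48638 cpm in cmGch1 KO, as cardiac tissue would hold. The medians were 51328 and 45560 cpm, and 0 of the 7 were called by edgeR. Macrophage markers summed to 107 to 147 cpm in WT and 141 to 180 cpm in cmGch1 KO. Fibroblast and endothelial sums had medians of 672 and 712 cpm in WT and 709 and 698 cpm in cmGch1 KO. The part of cell make-up in the results was not tested. Liver markers (Alb, Apoa1, Ttr and Cyp3a11) summed to 39.0 cpm in WT replicate 2 and to at most 2.08 cpm in the other 11 libraries. In WT replicate 2 Khk was 14.7, Sord 240 and Tkfc 7.30 cpm, and without it their log2 fold changes were -0.21, -0.21 and 0.05. Atrial markers (Myl4, Myl7, Sln and Nppa) summed to 74.3 to 545 cpm in WT and 246 to 742 cpm in cmGch1 KO. Of these 4 genes, 1 was called higher by edgeR, and the part of atrial tissue in the results was not tested. cmGch1 KO replicates 2 and 3 stood apart, with Xist at 86.7 and 99.1 cpm and Y-linked genes at 0, against Xist of at most 0.234 cpm in the other 10 libraries. Mitochondrial genes held 14.9% and 16.1% of the counts in cmGch1 KO replicates 2 and 3, against 18.3% to 22.9% in the others.

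The members differed in level over more than 4 orders of magnitude. Per kilobase of the RefSeq-matched transcript, the median over 12 libraries was 1643 cpm for Aldoa, 127 for Akr1b3, 111 for Sord, 8.96 for Khk, 3.07 for Tkfc, 0.0533 for Aldoc and 0.0282 for Slc2a5. The ranges of Akr1b3 (114 to 162 cpm per kilobase) and Sord (89.5 to 168) overlapped, and so did those of Aldoc and Slc2a5. Per kilobase of the exon union, Akr1b3 was at 21.03 and stood below Sord, because its exon union of 8384 bases is far longer than its transcript of 1387.

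**Figure D1:**
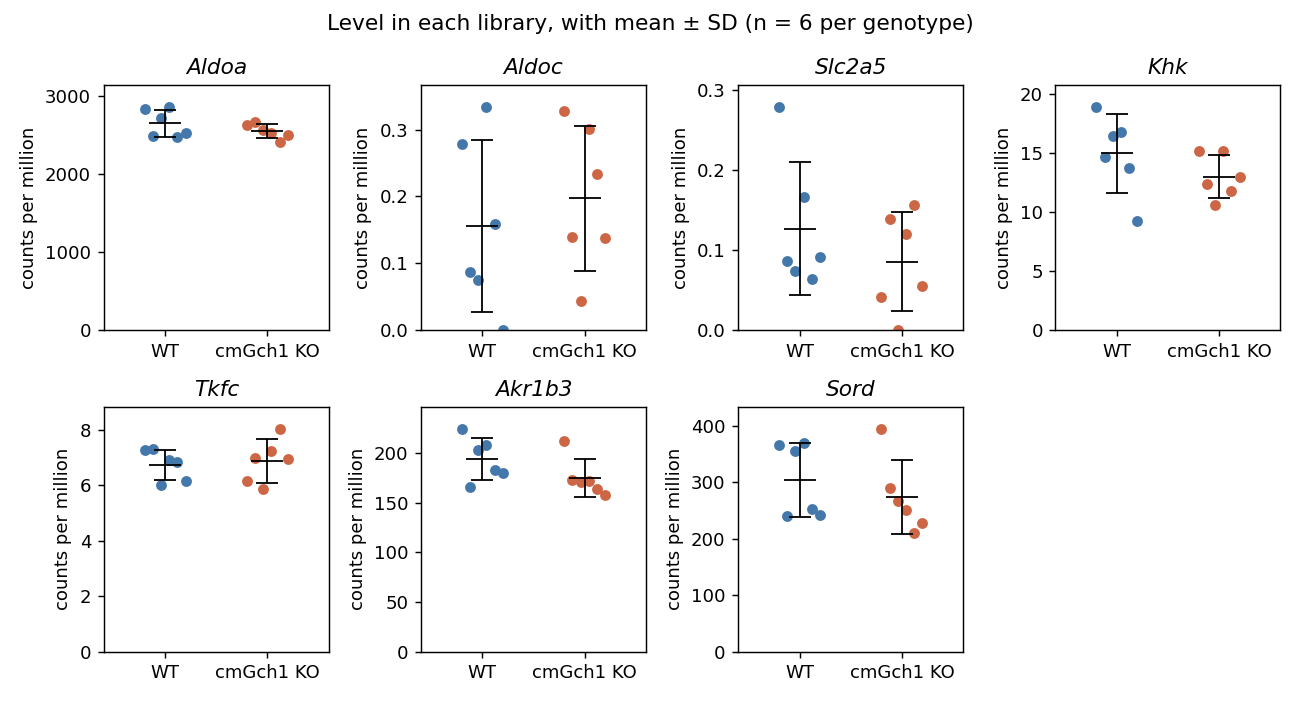
Level of the 7 members in each library, in cpm, with each vertical axis starting at 0; points are libraries, and black bars show the mean ± SD of 6 WT and 6 cmGch1 KO libraries. The values of all 7 members overlap between the genotypes, as for Aldoa at 2481 to 2860 in WT and 2419 to 2664 in cmGch1 KO.

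The contrast in level between Aldoa and Aldoc is shown with the sequences ahead of their start sites, which are from RefSeq on GRCm38.p6 and are given 5′ to 3′ on the gene's strand. Of the members, 6 have such a sequence in the table used, all but Akr1b3. The Aldoa stretch (chr7:126799255-126799504, minus strand, 250 bases) ends at the second of its 3 listed start sites and holds no annotated exon. The Aldoc stretch (chr11:78322823-78322967, plus strand, 145 bases) is the part ahead of the first of 2 start sites that holds no annotated exon. The Khk stretch (chr5:30921476-30921505, plus strand, 30 bases) lies within an annotated exon and is shown for its E-box. Capitals mark letters of 3 motifs searched on both strands: TATAAA (the TATA box), CACGTG (an E-box, the motif repeated in carbohydrate response elements) and ACGTG (the hypoxia response core, which every CACGTG also holds).
Aldoa: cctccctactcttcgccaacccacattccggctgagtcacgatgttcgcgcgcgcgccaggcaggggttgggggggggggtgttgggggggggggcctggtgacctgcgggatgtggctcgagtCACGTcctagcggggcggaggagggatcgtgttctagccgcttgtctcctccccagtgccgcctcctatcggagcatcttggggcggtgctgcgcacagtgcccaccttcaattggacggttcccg
Aldoc: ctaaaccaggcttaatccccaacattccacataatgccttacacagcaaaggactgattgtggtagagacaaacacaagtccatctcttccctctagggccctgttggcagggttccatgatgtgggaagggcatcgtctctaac
Khk: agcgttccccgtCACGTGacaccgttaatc
The Aldoa stretch holds ACGTG once, on the opposite strand. The same site lies 202 bases ahead of the third Aldoa start, and the 250 bases ahead of the first hold none. Counts per gene do not show which start was used. The ACGTG motif occurs in 16.6% of all 32851 windows of 250 bases ahead of listed start sites. The E-box of Khk begins 71 bases ahead of the start site, and 6.02% of the windows hold one. TATAAA, found in 12.4% of the windows, did not occur in the 250 bases ahead of any listed start of the 6 members. These matches describe letters only.

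Aldoa (ENSMUSG00000030695, chr7:126795234-126800751, minus strand), the glycolytic aldolase of muscle, was the most abundant member. Its level in WT was 2481 at the lowest, 2621 at the median and 2860 cpm at the highest, and in cmGch1 KO 2419, 2545 and 2664 cpm. The ranges overlapped, with a log2 fold change of -0.05 (SE 0.06, 95% interval -0.19 to 0.08) that turned to 0.02 when libraries were scaled by their size alone. Within a genotype Aldoa varied little: the SD of its log2 cpm was 0.08, and 96.5% of the tested genes had a larger one. GENCODE M21 lists a second gene with this symbol (ENSMUSG00000114515), which is not analysed here. The transcripts of 8 other genes aligned to Aldoa at 90% identity or more over at least 100 bases, and those with counts had at most 6 in a library.

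Aldoc (ENSMUSG00000017390, chr11:78322968-78327781, plus strand) was near the detection limit. It had at most 12 counts in a library. Its level was 0 to 0.333 cpm in WT, with a median of 0.122, and 0.0430 to 0.327 cpm in cmGch1 KO, with a median of 0.186. The count of 0 in WT replicate 6 allows up to 0.137 cpm. The 6 libraries of each genotype held 31 and 33 counts in all, and with no filter on low counts the log2 fold change was 0.27 (SE 0.59, 95% interval -0.97 to 1.51). Aldoc held at most 0.0124% of the summed counts of Aldoa and Aldoc in any library.

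Slc2a5 (ENSMUSG00000028976, chr4:150119283-150144169, plus strand), the fructose transporter, was likewise near the detection limit, with at most 9 counts in a library. Its level was 0.0632 to 0.279 cpm in WT and 0 to 0.156 cpm in cmGch1 KO. The count of 0 in cmGch1 KO replicate 3 allows up to 0.129 cpm. The genotypes held 24 and 14 counts in all, and with no filter on low counts the log2 fold change was -0.59 (SE 0.63, 95% interval -1.90 to 0.72). Among 17 other genes of fructose and polyol metabolism in a fixed list, 6 were also under the expression minimum, among them the transporters Slc2a2, at most 0.368 cpm, and Slc2a9, at most 2.42 cpm.

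Khk (ENSMUSG00000029162, chr5:30921431-30931248, plus strand) was expressed at a low level. In WT it was 9.26, 15.6 and 18.9 cpm at the lowest, median and highest, and in cmGch1 KO 10.6, 12.7 and 15.1 cpm. All cmGch1 KO values lay within the WT range. The log2 fold change was -0.20 (SE 0.15, 95% interval -0.52 to 0.11), and it ranged from -0.31 without WT replicate 6 to -0.13 without WT replicate 1. Counts per gene do not separate the KHK-A and KHK-C forms, which differ by 1 exon. The list of 6 splicing factors that act on Khk had 0 genes called in either direction by edgeR, 0 at an unadjusted p under 0.05, and a median log2 fold change of 0.02.

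Tkfc (ENSMUSG00000034371, chr19:10587791-10605654, minus strand) was the lowest of the tested members. In WT it was 5.998, 6.86 and 7.30 cpm at the lowest, median and highest, and in cmGch1 KO 5.85, 6.97 and 8.03 cpm. The ranges overlapped, with a log2 fold change of 0.03 (SE 0.10, 95% interval -0.18 to 0.23), and the sign turned when WT replicate 3 (-0.01) or cmGch1 KO replicate 5 (-0.02) was left out. Tkfc shares 596 exonic bases with Cyb561a3 and 328 with Ddb1, both on the opposite strand. The libraries were made to keep strand, but the strand setting of the counting is not given in the sources used here, so the Tkfc counts are uncertain.

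The enzymes of the polyol pathway were the most abundant members after Aldoa. Akr1b3 (ENSMUSG00000001642, chr6:34302434-34317478, minus strand), aldose reductase, was 166, 193 and 224 cpm at the lowest, median and highest in WT and 158, 171 and 212 cpm in cmGch1 KO. Sord (ENSMUSG00000027227, chr2:122234749-122265340, plus strand), sorbitol dehydrogenase, was 240, 305 and 369 cpm in WT and 210, 258 and 395 cpm in cmGch1 KO. Both overlapped between the genotypes. The log2 fold change was -0.15 for Akr1b3 (SE 0.09, 95% interval -0.34 to 0.04) and -0.15 for Sord (SE 0.16, 95% interval -0.50 to 0.19). With 1 library left out, Sord ranged from -0.29 without cmGch1 KO replicate 1 to -0.09 without cmGch1 KO replicate 5 or WT replicate 4. Both have near copies among pseudogenes. The sources used here do not say how reads that match more than 1 place were counted, so both levels are uncertain. Gm12138, Gm6644 and Gm6736, each over 99% identical to Akr1b3 across 948 to 951 bases, had at most 136, 42 and 35 counts in a library. Gm38056, 99.7% identical to Akr1b3 over 1352 bases, was not among the genes counted. Gm6652, 99.3% identical to Sord over 1070 bases, had at most 71 counts in a library.

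Over the genotype comparison, 0 of the 5 tested members were called at an FDR of 0.05 and 0 had an unadjusted p under 0.05 in edgeR. DESeq2 called 0 as well. Of all 11225 genes tested, 1.12% were called, 0.677% higher and 0.445% lower, and 1.87% had ranges that did not overlap between the genotypes. With 4 members lower and 1 higher, the median log2 fold change was -0.15 for the 5 members and -0.01 for all tested genes. The members were proposed with results of this contrast known, so these are descriptions. Their 95% intervals together ran from -0.52, the lower end for Khk, to 0.23, the upper end for Tkfc.

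**Figure D2:**
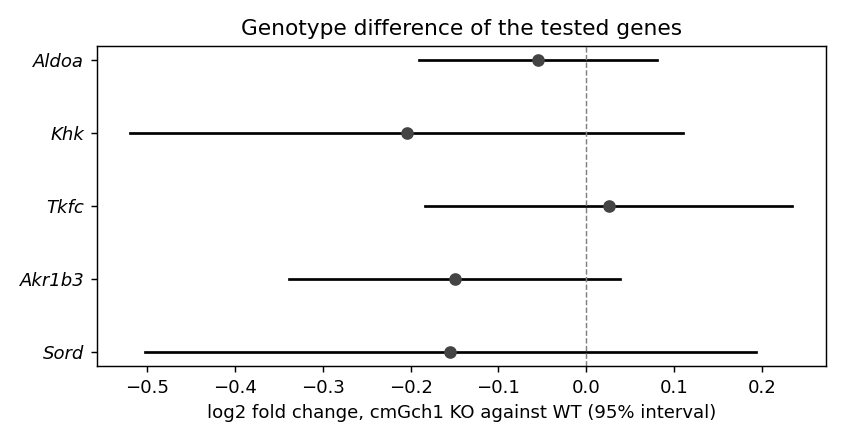
Difference between cmGch1 KO and WT as a log2 fold change, with the 95% interval as a line, for the 5 tested members; the dashed line marks no difference. All 5 intervals cross 0, and together they run from -0.52 to 0.23.

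Sord divided the WT libraries, and in cmGch1 KO it was high in replicate 1 alone. Sord was 356 to 395 cpm in WT replicates 1, 3 and 4 and cmGch1 KO replicate 1, and 210 to 290 cpm in the other 8 libraries. The same 4 libraries had the highest Akr1b3, 203 to 224 cpm against 158 to 183 cpm. In WT the widest gap between neighbouring Akr1b3 values was 0.33 of its range, against 0.79 for Sord. In cmGch1 KO the gap below replicate 1 was 0.72 of the range for Akr1b3 and 0.57 for Sord. Since Sord fell into separate clusters of libraries, no correlation across libraries is given for it. Aldoa divided the WT libraries in the same way, at 2719 to 2860 cpm in replicates 1, 3 and 4 against 2481 to 2522 cpm. Its widest gap in WT was 0.52 of its range, and in cmGch1 KO 0.36. Khk was also highest in those WT replicates, at 16.5 to 18.9 cpm against 9.26 to 14.7 cpm. The level of long genes was low relative to that of short genes in these 4 libraries, though not in them alone. The median deviation in log2 cpm of the 2800 tested genes with the longest exon union minus that of the 2800 with the shortest was -0.35, -0.11, -0.26 and -0.41 in WT replicates 1, 3 and 4 and cmGch1 KO replicate 1. It was -0.19 in cmGch1 KO replicate 2, below the value of WT replicate 3, -0.02 in cmGch1 KO replicate 3, and 0.14 to 0.27 in the other 6 libraries. The part of gene length in the Sord and Akr1b3 levels was not tested. With this length difference as a covariate, the log2 fold changes were -0.15 for Sord and -0.15 for Akr1b3, and 0 members were called.

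**Figure D3:**
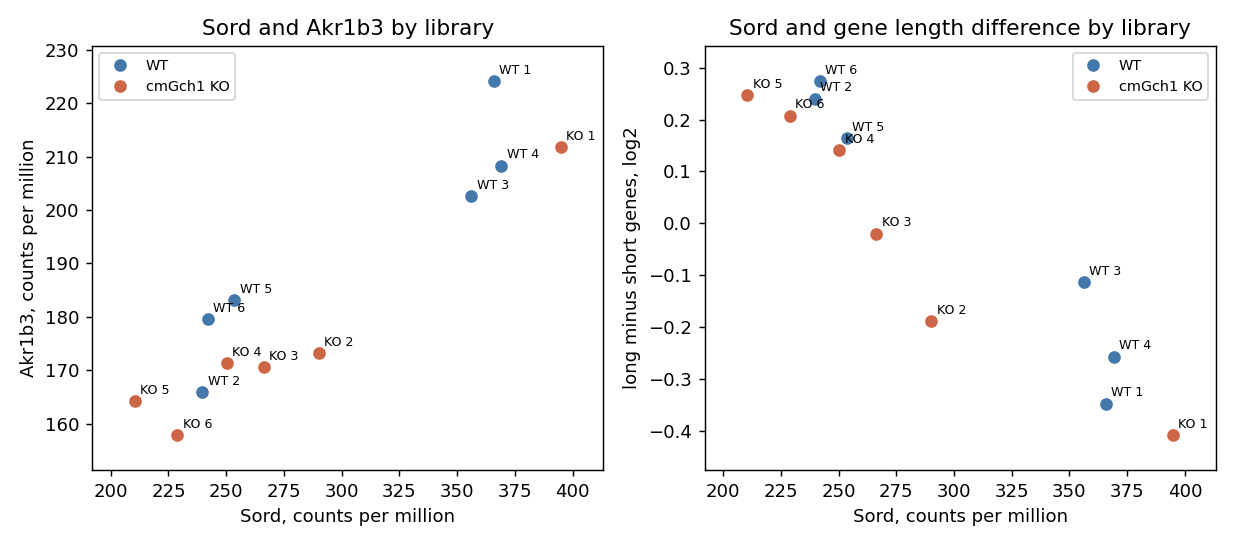
Sord in cpm against Akr1b3 in cpm (left) and against the log2 difference between long and short genes (right), with 1 point per library. WT replicates 1, 3 and 4 and cmGch1 KO replicate 1 lie apart at Sord of 356 or more, with Akr1b3 of 203 or more and a long minus short difference of -0.11 or less, a range that also holds cmGch1 KO replicate 2.

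Of the 10 pairs of tested members, 6 do not include Sord, and the p-values were adjusted over all 10. After the genotype means were removed from log2 cpm, Aldoa and Akr1b3 varied together over 12 libraries (Pearson r = 0.80, permutation p = 0.00633, adjusted p = 0.0211; Spearman rho = 0.83, permutation p = 0.00483, adjusted p = 0.0161). The r was 0.93 within WT and 0.61 within cmGch1 KO, and 0.73 without the 2 libraries farthest from the median of Aldoa. In WT both genes were highest in replicates 1, 3 and 4, and in cmGch1 KO replicate 1 stood far above the rest for Akr1b3. The p-values therefore do not separate a tie between these 2 genes from a shared difference between those libraries. The pair did not pass when libraries were scaled by their size alone. Long genes were low relative to short genes in those WT replicates and in cmGch1 KO replicate 1. They were also low relative to short genes in cmGch1 KO replicate 2, where Akr1b3 was 173 cpm. The other 5 pairs did not pass, with adjusted p of 0.106 or more by Pearson and 0.0807 or more by Spearman. The nearest to passing was Khk and Akr1b3 (Pearson r = 0.59, permutation p = 0.0530, and Spearman rho = 0.64, permutation p = 0.0403).

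The genes whose deviations followed each member most closely over the 12 libraries, of 11224 ranked, are given as a description. For Aldoa they were Snrnp27 (r = 0.96), Id3 (0.96) and Akr1e1 (0.95). For Khk they were Cryl1 (0.93), Nubpl (0.92) and Erich1 (0.92). For Tkfc they were Arhgap19 (0.87), Zfp9 (0.87) and Zfr2 (0.85). For Sord the highest ranked were Map1lc3b, Eif3h and Psma1, with no r given for the reason above, and for Akr1b3 they were Eef1akmt1, Atp6v1e1 and Fastkd2, all at 0.97. The points share libraries and depth, and Sord and Akr1b3 were both highest in the same libraries. In WT, Aldoa and Khk were also highest in replicates 1, 3 and 4.

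Around the members, 11 tested genes of fructose and polyol metabolism had 0 called in either direction by edgeR, 2 at an unadjusted p under 0.05, and a median log2 fold change of -0.01. The lowest value was that of Slc2a12, a glucose transporter, at 9.31 to 12.2 cpm in WT and 7.10 to 9.23 cpm in cmGch1 KO, with no overlap. Its log2 fold change of -0.37 (SE 0.09) had an adjusted p of 0.0644 in edgeR, and of 0.00465 in DESeq2 and 0.0198 with the long minus short gene level as a covariate, so its call depended on the test. The highest value was that of Dcxr, an L-xylulose reductase (0.26, SE 0.15, adjusted p = 0.547, edgeR with Benjamini-Hochberg adjustment). Glycolysis around the aldolase step had 24 tested genes, with 2 called higher and 2 lower and a median of -0.01. An unadjusted p under 0.05 in edgeR was found for 5 genes above 0 and 4 below 0. No share of all tested genes at that threshold was computed, so this count and that of the fructose list are descriptions only. Hk1, a hexokinase, rose by 0.39 (SE 0.08, adjusted p = 0.0407, edgeR), from 171 to 202 cpm in WT to 196 to 287 cpm in cmGch1 KO. Pfkp, the platelet-type phosphofructokinase that forms the substrate of aldolase, rose by 0.48 (SE 0.09, adjusted p = 0.0135, edgeR), from 45.6 to 59.4 cpm to 63.4 to 88.5 cpm, with no overlap.

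The genes called lower in glycolysis control the fructose phosphates. Pfkfb1, which makes and removes fructose 2,6-bisphosphate, fell by 1.37 on the log2 scale (SE 0.26, adjusted p = 0.0158, edgeR), from 6.98 to 15.7 cpm in WT to 2.57 to 6.99 cpm in cmGch1 KO. Fbp2, the muscle fructose 1,6-bisphosphatase, fell by 0.63 (SE 0.14, adjusted p = 0.0438, edgeR), from 23.4 to 32.0 cpm to 13.0 to 22.2 cpm, with no overlap. None of these 4 calls held without cmGch1 KO replicates 2 and 3, the libraries with high Xist, where the adjusted p was 0.181 for Hk1, 0.113 for Pfkp, 0.141 for Pfkfb1 and 0.189 for Fbp2, while the log2 fold changes were 0.40, 0.42, -1.24 and -0.46. With 1 library left out at a time, Hk1 kept its call in 1 of 12 cases, without cmGch1 KO replicate 1, and otherwise had an adjusted p of 0.0619 to 0.110. Fbp2 kept its call in 3 of 12, without cmGch1 KO replicate 1, 4 or 6, and otherwise had 0.0503 to 0.115. Gapdh had the largest value above 0 on the list, 0.66 (SE 0.75, adjusted p = 0.837, edgeR), which was 0.45 to 1.31 with 1 library left out and highest without WT replicate 4. It lay between 10.5 and 136 cpm in WT and between 6.43 and 121 cpm in cmGch1 KO. Both genotypes were divided, with WT replicates 4 and 6 at 136 and 93.2 cpm against 10.5 to 20.6 cpm. In cmGch1 KO, replicates 2 and 4 stood at 6.43 and 14.7 cpm against 97.2 to 121 cpm. The cause of this division was not tested.

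In the other fixed lists 0 genes were called in either direction by edgeR. Hypoxia-inducible factors and targets had 17 tested genes, 14 of them below 0, with a median of -0.13 against -0.01 for all tested genes. They ran from Ddit4 (-0.80, SE 0.33, adjusted p = 0.345, edgeR) to Hif1a (0.26, SE 0.10, adjusted p = 0.274, edgeR). Of the 17, 7 had an unadjusted p under 0.05 in edgeR, 5 below 0 and 2 above 0. Carbohydrate-responsive factors and targets had 5 tested genes, with Mlxipl, which encodes ChREBP, at -0.24 and Txnip at 0.20. Other uses of fructose 6-phosphate had 10, with a median of 0.03, from Uap1 (-0.13) to Pgm3 (0.14). The osmotic response around aldose reductase had 5, from Hspa1b (-1.39, SE 0.84) to Hspa4l (0.21), and purine breakdown had 6, from Nt5c1a (-0.32) to Gda (0.19). At an unadjusted p under 0.05 stood 1 gene of the fructose 6-phosphate list, 1 of purine breakdown and 0 of the carbohydrate-responsive and osmotic lists. The share of all tested genes at that unadjusted threshold was not computed, so these counts are descriptions only.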

How the data were processed

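Left ventricle RNA was sequenced from 6 WT and 6 cmGch1 KO mice, grouped by the genotype in the labels. The authors made stranded paired-end libraries, and their processing notes name HISAT2, SAMtools and GRCm38; the strand setting of counting is not given in the sources used here. The authors deposited raw counts per Ensembl gene, used for the main results, and normalized values on a log2 scale, used as an alternative. Of 26921 IDs, 26582 were found in GENCODE M21, which gave symbols and positions.

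The 11225 genes that exceeded 3 cpm in 6 or more libraries were tested with edgeR 4.0.16 in R 4.3.3 (TMM, quasi-likelihood test, no covariate, Benjamini-Hochberg adjustment, FDR 0.05). DESeq2 1.42.0 and limma 3.58.1 were alternatives, and BLAST 2.17.0+ searched GENCODE transcripts for near copies. Log2 cpm used a prior count of 2. Member pairs were compared with two-sided permutation tests (100000 shuffles within genotype), and near genes were ranked by r. Depth was 19921398 to 37917806 counts per library. Over 30 pairs of libraries of 1 genotype, the lowest chi-square per degree of freedom was 12.6, so none was the same library sequenced again.

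The members and the gene lists were chosen with earlier results of these data known. The genes named are the members, Gch1, sex-linked genes, each list's called genes and largest rise and fall, and the 3 genes nearest to each tested member. The transporters Slc2a2 and Slc2a9 were named after their values were seen. Results for 1 further gene are not reported here.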

Additional observations from a re-analysis of the deposited data

Results flagged for a closer look

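In 54 groups of 6 libraries (27 named genes in each genotype), 2 had a library far from the others, where chance gives about 1 in 20. Akr1b3 was 212 cpm in cmGch1 KO replicate 1, against 173 cpm for the next highest. Pfkfb1 was 6.99 cpm in cmGch1 KO replicate 4, against 3.64 cpm for the next highest.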

How the results depend on the processing

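Over 23 alternatives, 0 of 115 member values were called, 112 kept their direction, and the lowest adjusted p was 0.0576 (Akr1b3 with the long minus short gene level as a covariate, an alternative chosen after seeing the data). The other 3 were Aldoa at 0.022 with scaling by library size alone, and Tkfc at -0.0053 without WT replicate 3 and -0.025 without cmGch1 KO replicate 5 (-0.025 to 0.063 over all such omissions). That scaling moved the median of all tested genes to 0.07 and turned Hnrnpa2b1 to 0.018, and it gave -0.13 for Khk, -0.08 for Sord and -0.08 for Akr1b3. Khk was -0.12 and Sord -0.17 without the high-Xist libraries. Txnip was -0.019 without cmGch1 KO replicate 6 and at most 0.34 over such omissions. All genes called numbered 76 higher and 50 lower in the reported comparison, 218 and 155 by the DESeq2 Wald test, 308 and 331 with the length covariate, 40 and 24 with sex-linked expression as covariate, 20 and 18 without the high-Xist libraries, and 116 higher by library size alone. Leaving out 1 library gave 45 to 116 higher (45 without WT replicate 3, 116 without cmGch1 KO replicate 1) and 30 to 97 lower. In the fixed lists, 2 were called higher and 2 lower, against 4 and 8 with the length covariate, 6 lower by DESeq2, 1 higher with no filter on low counts, with filterByExpr and with the deposited values, and 0 in either direction both with sex-linked expression and without the high-Xist libraries. Leaving out 1 library gave 1 to 3 higher and 1 to 2 lower. The cause of these changes was not tested. Of the 6 pairs of members without Sord, 1 passed, and 0 with scaling by library size. With the replicate number as a block, 112 genes were higher and 76 lower, and 0 members were called. Whether the replicate numbers pair the samples was not settled. Correlations of deviations were 0.68, -0.09, -0.08, -0.13, 0.40 and 0.51, and 3 of 6 WT libraries matched best with their own number. The numbers 2 and 3 include the cmGch1 KO libraries with high Xist. Depth limits Aldoc and Slc2a5, which had at most 12 and 9 counts in a library.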
